A study of Homo sapiens with 2 samples.

Results

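Airway mucins and mucus proteins were examined as 9 genes, the secreted mucins MUC5AC and MUC5B, the membrane mucins MUC1, MUC3A, MUC12, MUC13 and MUC20, the mucus protein FCGBP and the mucin-folding factor AGR2. They were looked up by Entrez ID among the 16399 genes listed, of which 12820 were expressed, that is at 1 CPM (a count per 1000000 counts of the library) or more in at least 1 library. All 9 were listed and all 9 were expressed. The set was chosen by the CPM of MUC5AC and MUC5B, which were lower in the PKP2 library than in the vector library. The contrast had thus been used already, and every difference below is a description with no test.

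RNA was sequenced from A549 cells, an established human lung adenocarcinoma line grown in serum-containing medium. The PKP2 group carried plakophilin 2, an armadillo-repeat protein of the desmosome, overexpressed with an SFB tag, and the vector group is labelled only as vector. Both cultures were at passage 5. Each group held 1 library, so no difference has a replicate check, and what is compared is a pair of libraries rather than the conditions.

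Gel-forming mucins are very large secreted glycoproteins. Their ends are rich in cysteine and join them into polymers, and their centres are rich in threonine, serine and proline and carry dense O-linked sugars. MUC5AC and MUC5B make up most of airway mucus, MUC5AC mainly from goblet cells of the surface and MUC5B also from submucosal glands. Membrane mucins stay anchored at the apical surface, where they form part of the glycocalyx. EGFR signalling and IL-13 signalling are both known to raise MUC5AC transcription in airway epithelium.

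The libraries summed to 16808842 estimated counts for PKP2 and 16996976 for vector. The PKP2 transcript stood at 268 CPM in the PKP2 library and 27.3 CPM in the vector library, a ratio of 9.82. All 7 epithelial markers of the line were expressed, with EPCAM low at 1.37 and 1.47 CPM. Of 9 goblet cell markers 5 were listed, while TFF3, CLCA1, ERN2 and ITLN1 were not. SPDEF, FOXA3 and BCAS1 were expressed, and CREB3L1 and BPIFB1 were under 1 CPM. The listed ones summed to 17.9 CPM in the PKP2 library and 20.8 CPM in the vector library. Most of this was SPDEF, at 11.9 CPM in the PKP2 library and 14.4 CPM in the vector library. Of 8 alveolar type 2 markers, 6 were listed and 2 were expressed. ABCA3 stood at 83.1 CPM in the PKP2 library and 91.7 CPM in the vector library, and LAMP3 at 1.01 and 0.588 CPM. The surfactant gene SFTPB had 1 count in the PKP2 library and 0 in the vector library.

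The repeats inside mucin genes are shown first because they bear on how reads are counted. In the longest GENCODE 29 transcript of each gene, every stretch of 50 bases was looked up again in the same transcript and in the transcripts of all other genes. In MUC5AC 21.4% of these windows recurred within the transcript, and in MUC5B 29.2% did. Nearly all of them lay in exon 31 of 49, which is 10371 bases long in MUC5AC and 10893 bases long in MUC5B and holds the threonine- and serine-rich centre. The most frequent 24-base run occurred 16 times in the MUC5AC transcript and 6 times in the MUC5B transcript. MUC1 has a 60-base tandem repeat, and its most frequent form occurred 19 times. These runs are given 5′ to 3′ in the sense of the transcript.
MUC5AC: ctcctacaaccagcacaacctctg
MUC5B: accccagggaccacctggatcctc
MUC1: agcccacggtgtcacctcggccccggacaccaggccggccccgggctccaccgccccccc

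A recurrence inside 1 gene does not move reads to another gene. Only 0.379% of the MUC5AC windows occurred in another gene, which was MUC5B. Of the MUC5B windows 2.30% occurred elsewhere, in MUC5AC and in the antisense gene MUC5B-AS1. Reads of MUC5B and of its antisense partner cannot be told apart without strand, and the strand setting is not stated in the labels. FCGBP repeated 52.9% of its windows, MUC1 42.4% and MUC12 61.5%, in each case with 0 windows in other genes. MUC3A shared 3.67%. MUC20 was the exception, with 69.1% of its windows in MUC20-OT1 or MUC20P1, so its count is uncertain. The counts of all 9 genes were whole numbers in both libraries.

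Of the 9 genes, 3 were at least 1.5-fold lower in the PKP2 library on the log2(CPM + 1) scale, where 0.788% of the 12820 expressed genes were, and 0 were at least 1.5-fold higher, where 0.733% of expressed genes were. The 3 were MUC5AC, MUC5B and FCGBP. At 2-fold lower there was 1, MUC5AC, against 0.101% of expressed genes, and at 2-fold higher there were 0, against 0.0858%. In all 6 of the 9 were lower to any extent, as were 50.3% of expressed genes. For 5 of the 9 the 95% counting interval of the CPM ratio lay below 1, as it did for 19.8% of expressed genes, and for 0 it lay above 1, as it did for 16.3%. Because this contrast chose the set, nothing is read from these shares. Intervals are exact Clopper-Pearson intervals and cover counting error only.

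**Figure D1:**
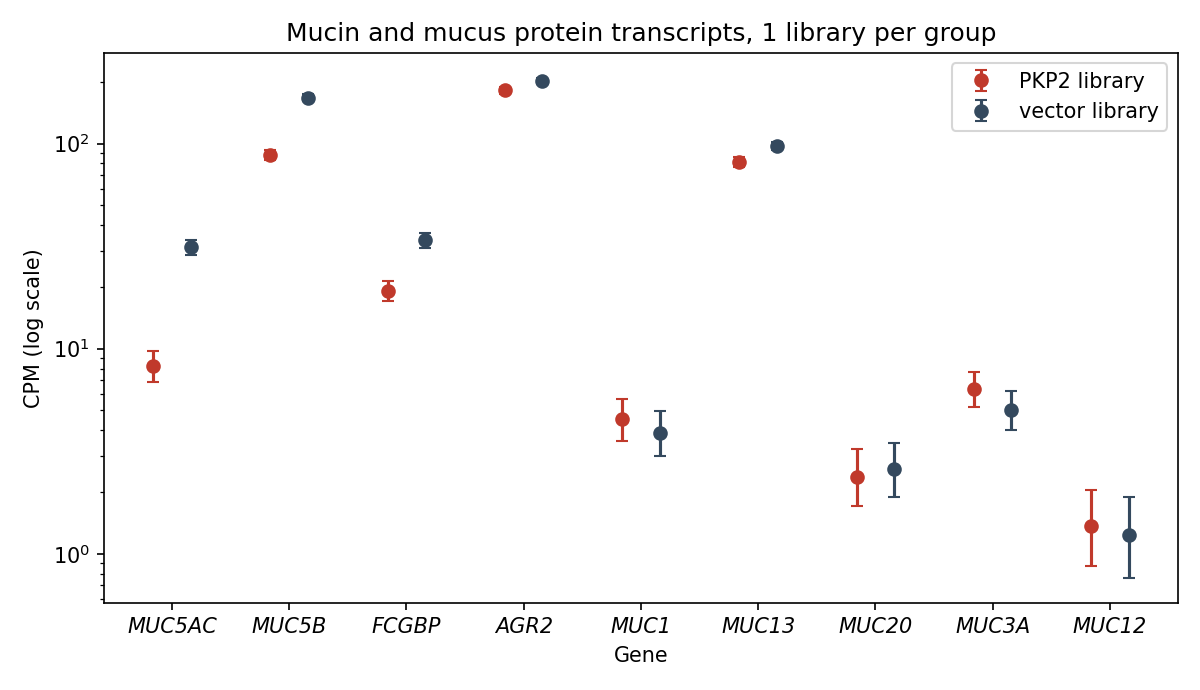
CPM of each gene (log scale) in the PKP2 library (red) and the vector library (dark blue), with exact 95% Poisson counting intervals as bars and 1 library per group. MUC5AC, MUC5B, FCGBP, AGR2 and MUC13 have intervals that lie apart, with the PKP2 library lower, while those of MUC1, MUC20, MUC3A and MUC12 overlap.

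MUC5AC (Entrez ID 4586, chromosome 11, 1157953 to 1201138, plus strand, GRCh38) encodes the main gel-forming mucin of goblet cells. It had 138 counts in the PKP2 library and 531 counts in the vector library. In CPM it stood at 8.21 (6.90 to 9.70) in the PKP2 library and 31.2 (28.6 to 34.0) in the vector library. The ratio was 0.263, with an interval of 0.216 to 0.317, and only 1 expressed gene had a lower log2(CPM + 1) difference. In RNA from a whole culture, fewer producing cells and less RNA per cell cannot be told apart.

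MUC5B (Entrez ID 727897, chromosome 11, 1223066 to 1262172, plus strand), the other main airway gel-forming mucin, was the more abundant of the pair. It had 1480 counts in the PKP2 library and 2851 counts in the vector library, or 88.0 CPM (83.6 to 92.7) against 167.7 CPM (161.6 to 174.0). The ratio was 0.525 (0.493 to 0.559). Together MUC5AC and MUC5B held 96.3 CPM in the PKP2 library and 199.0 CPM in the vector library, a ratio of 0.484 (0.456 to 0.513).

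Set against each other, MUC5AC had 0.0932 counts for each count of MUC5B in the PKP2 library and 0.186 in the vector library. The ratio of these ratios was 0.501 (0.408 to 0.612). This quantity is taken within each library and so does not depend on how the libraries are scaled. It describes the counts that chose the set and tests nothing.

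FCGBP (Entrez ID 8857, chromosome 19, 39863323 to 39934626, minus strand) encodes a large secreted protein of mucus with repeated von Willebrand type D domains, a domain type it shares with the gel-forming mucins. It had 321 counts in the PKP2 library and 574 counts in the vector library. Its level was 19.1 CPM (17.1 to 21.3) in the PKP2 library against 33.8 CPM (31.1 to 36.6) in the vector library, a ratio of 0.565 (0.492 to 0.649). Relative to MUC5B, FCGBP had 0.217 counts in the PKP2 library and 0.201 in the vector library, and the interval of that ratio of ratios, 0.924 to 1.25, includes 1. Relative to MUC5AC the ratio of ratios was 2.15 (1.70 to 2.73).

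AGR2 (Entrez ID 10551, chromosome 7, 16791811 to 16833433, minus strand) encodes a protein disulfide isomerase of the endoplasmic reticulum that is needed for mucin production in the mouse intestine. It was the most abundant gene of the set, with 3056 counts in the PKP2 library and 3433 counts in the vector library. That is 181.8 CPM (175.4 to 188.4) against 202.0 CPM (195.3 to 208.8). Its ratio of 0.900 (0.857 to 0.945) lay below 1 but far closer to it than those of the secreted mucins. Against AGR2 within each library, MUC5B had a ratio of ratios of 0.583 (0.538 to 0.632) and FCGBP one of 0.628 (0.542 to 0.728).

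**Figure D2:**
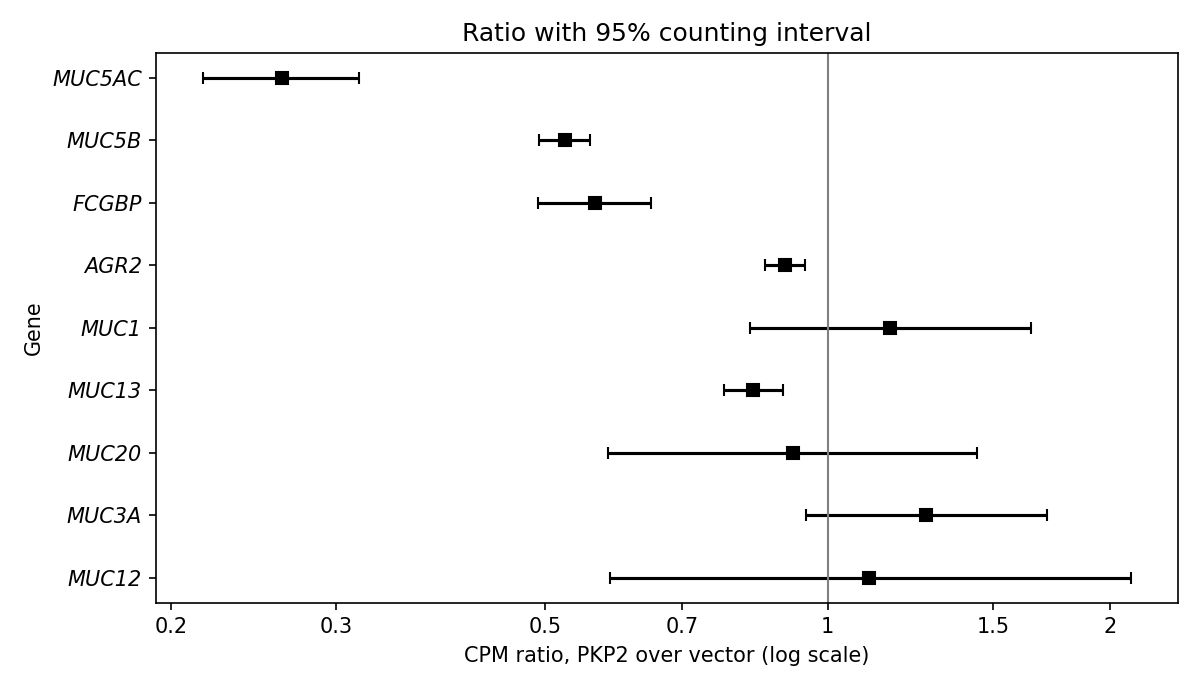
CPM ratio of the PKP2 library over the vector library (log scale) for each gene, with exact 95% counting intervals and a grey line at 1. MUC5AC at 0.263 stands lowest, MUC5B and FCGBP have overlapping intervals, and the intervals of MUC1, MUC20, MUC3A and MUC12 include 1.

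Among the membrane mucins MUC13 alone had an interval away from 1. MUC13 (Entrez ID 56667, chromosome 3, 124905442 to 124953819, minus strand), a transmembrane mucin of gut and airway epithelium, had 1365 counts in the PKP2 library and 1656 counts in the vector library. In CPM this was 81.2 (77.0 to 85.6) against 97.4 (92.8 to 102.2), a ratio of 0.834 (0.775 to 0.896). The PKP2 over vector ratios of AGR2 and MUC13 did not differ detectably from each other, with a ratio of ratios of 1.08 (0.989 to 1.18). MUC5B against MUC13 gave 0.630 (0.572 to 0.694).

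The other 4 membrane mucins were scarce. MUC1 (Entrez ID 4582, chromosome 1, 155185824 to 155192916, minus strand), the best known transmembrane mucin, had 76 counts in the PKP2 library and 66 counts in the vector library, a ratio of 1.16 (0.826 to 1.64). MUC20 (Entrez ID 200958, chromosome 3, 195720882 to 195741123, plus strand) had 40 and 44 counts in the PKP2 and vector libraries, a ratio of 0.919 (0.584 to 1.44). MUC3A (Entrez ID 4584, chromosome 7, 100949555 to 100968346, plus strand) had 107 and 85 counts, a ratio of 1.27 (0.949 to 1.71). Its neighbour MUC12 (Entrez ID 10071, chromosome 7, 100969623 to 101018949, plus strand) had 23 and 21 counts, a ratio of 1.11 (0.586 to 2.10). For these 4 genes no difference was detectable at this depth, and the intervals still allow a change of 1.5-fold in the lower direction for MUC20 and MUC12 and in the higher direction for MUC1, MUC3A and MUC12.

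As a group the 5 membrane mucins summed to 95.8 CPM in the PKP2 library and 110.1 CPM in the vector library, a ratio of 0.870 (0.814 to 0.931), most of it MUC13. The make-up of the 9-gene set shifted with this. AGR2 held 46.3% of the set's counts in the PKP2 library and 37.1% in the vector library. MUC5B held 22.4% against 30.8%, and MUC5AC 2.09% against 5.73%.

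Levels of different genes were compared as CPM per kilobase of the longest GENCODE 29 transcript. In the PKP2 library the order was AGR2 at 102.3, MUC13 at 28.2, MUC5B at 4.92, FCGBP at 2.04, MUC1 at 1.08, MUC20 at 0.837, MUC3A at 0.567, MUC5AC at 0.471 and MUC12 at 0.0818. The counting intervals of MUC1 and MUC20, of MUC20 and MUC3A, and of MUC3A and MUC5AC overlapped. In the vector library AGR2 stood at 113.6, MUC13 at 33.8, MUC5B at 9.36, FCGBP at 3.60, MUC5AC at 1.79, MUC1 at 0.931, MUC20 at 0.911, MUC3A at 0.445 and MUC12 at 0.0738. There only MUC1 and MUC20 overlapped as neighbours in the order. MUC5AC was thus eighth of the 9 genes in the PKP2 library and the fifth in the vector library. Per kilobase, AGR2 was above 95.8% of expressed genes in the PKP2 library and above 96.4% in the vector library, whereas MUC5AC was above 5.02% and 18.6%.

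Differences across all expressed genes were related to transcript length, and the secreted mucins have very long transcripts, 17448 bases in MUC5AC and 17911 in MUC5B. Among 549 expressed genes with a longest transcript of 10000 bases or more, 445 were lower and 104 higher in the PKP2 library, with a median log2(CPM + 1) difference of -0.19. MUC5AC at -1.81 and MUC5B at -0.92 were the lowest of these 549 genes, and FLG, a gene of the cornified skin layer picked after its value was seen, came next at -0.81. MUC3A and MUC12, with transcripts of 11226 and 16737 bases, lay at 0.30 and 0.08. Both were scarce, and their ratio intervals, 0.949 to 1.71 and 0.586 to 2.10, include 1, so neither has a clear direction. With an additive trend on length and GC content removed, MUC5AC lay at -1.69, MUC5B at -0.82, FCGBP at -0.73, AGR2 at -0.20, MUC13 at -0.27 and MUC20 at -0.18. On the other side MUC3A lay at 0.43, MUC12 at 0.22 and MUC1 at 0.08, the first 2 further from 0 than before.

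**Figure D3:**
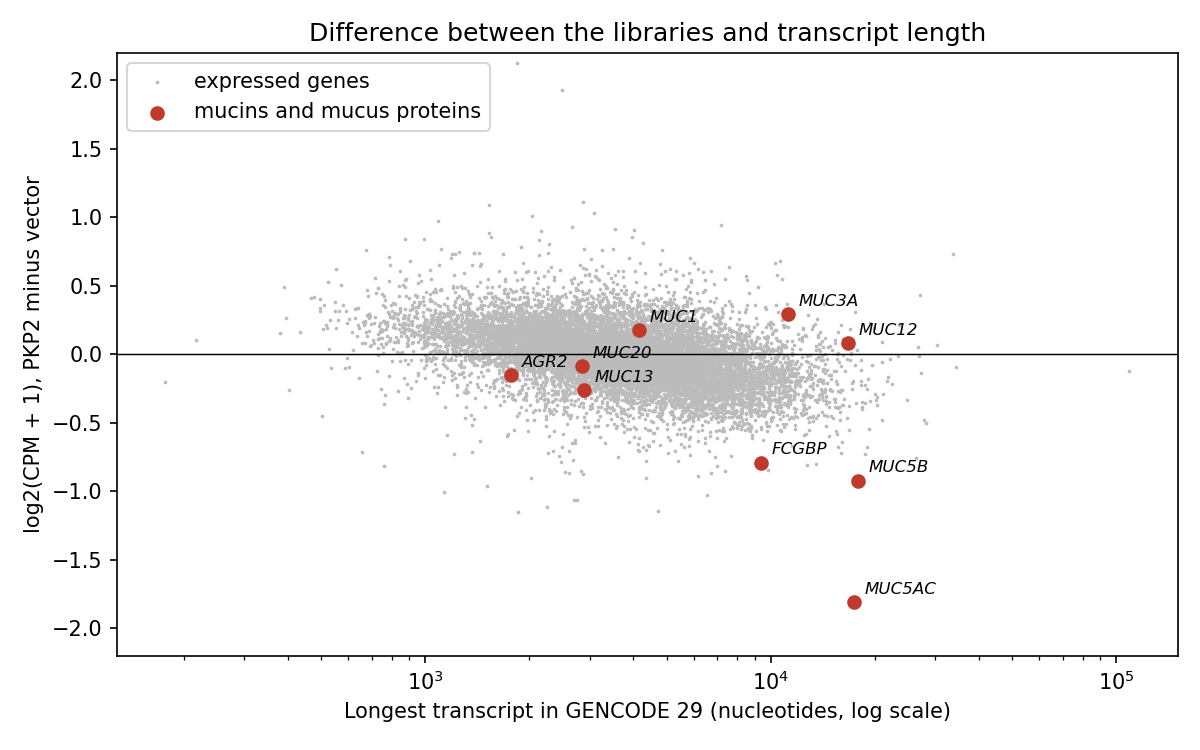
Difference in log2(CPM + 1), PKP2 minus vector, against the length of the longest transcript in nucleotides (log scale) for expressed genes (grey) and the 9 mucin and mucus genes (red). Of 12670 genes with a length, 3 lie outside the plotted range. MUC5AC and MUC5B lie below every other gene of 10000 bases or more. MUC3A and MUC12 lie above 0, with ratio intervals that include 1.

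MUC5AC and MUC5B are neighbours in a cluster of gel-forming mucin genes on chromosome 11. Genes were looked up whose lowest coordinate lay within 200 kb of the lowest coordinate of either. MUC6, a stomach mucin, had 6 counts in the PKP2 library and 1 in the vector library. MUC2, the main intestinal mucin, had 1 and 5 counts, and LINC02688 had 9 and 10. All 3 were below 1 CPM. TOLLIP, a minus-strand gene for an inhibitor of Toll-like receptor signalling, has its lowest coordinate 51.3 kb above that of MUC5B. It was at 46.5 CPM in the PKP2 library and 40.0 CPM in the vector library, a ratio of 1.16 (1.05 to 1.29). BRSK2, a kinase gene whose lowest coordinate lies 166.8 kb above that of MUC5B, had a ratio of 1.09 (0.916 to 1.30). The lower values of the pair were therefore not shared by these 2 expressed neighbours. FCGBP, on another chromosome, had 5 expressed neighbours within the same distance, with ratios of 0.832 to 1.14.

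The 250 bases before the start site were available from the RefSeq table of GRCh38.p14 for 6 of the 9 genes. MUC5AC, MUC5B and MUC20 were not among them. They are printed for the 3 of these 6 whose ratio interval lay below 1, all on the minus strand and read 5′ to 3′ toward the start, at chr19:39934635-39934884 for FCGBP, chr7:16805000-16805249 for AGR2 and chr3:124934752-124935001 for MUC13. The start is that of the RefSeq table, and for AGR2 and MUC13 it lies inside the longer gene that GENCODE gives above. Capitals mark matches, on either strand, to the TATA box TATAAA, the GC box GGGCGG, the CRE TGACGTCA and the AP-1 site TGANTCA.
FCGBP: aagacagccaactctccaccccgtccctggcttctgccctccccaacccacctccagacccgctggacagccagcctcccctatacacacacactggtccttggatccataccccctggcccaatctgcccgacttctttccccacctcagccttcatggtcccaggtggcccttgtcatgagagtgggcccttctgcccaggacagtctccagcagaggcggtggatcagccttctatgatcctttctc
AGR2: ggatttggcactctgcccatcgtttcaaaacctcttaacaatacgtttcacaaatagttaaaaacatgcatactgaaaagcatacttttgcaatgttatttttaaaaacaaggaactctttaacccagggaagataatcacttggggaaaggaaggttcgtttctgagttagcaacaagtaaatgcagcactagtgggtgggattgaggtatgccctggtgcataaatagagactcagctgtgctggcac
MUC13: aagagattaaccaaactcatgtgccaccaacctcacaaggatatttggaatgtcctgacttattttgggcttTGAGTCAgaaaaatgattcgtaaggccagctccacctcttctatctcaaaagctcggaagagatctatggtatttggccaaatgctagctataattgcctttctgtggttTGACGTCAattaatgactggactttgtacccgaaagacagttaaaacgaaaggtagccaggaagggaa

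Neither FCGBP nor AGR2 held any of these letters in this window. MUC13 held the CRE from -68 to -61 and the AP-1 letters from -178 to -172, counted from the start site. Of the promoters not printed, MUC1 held 1 TATA box match and 4 GC box matches, some overlapping. MUC3A held 1 GC box match and MUC12 held 1 TATA box match. Of 27305 promoters of this length, 1.77% held the CRE and 6.60% the AP-1 letters, while 11.1% held the TATA box and 42.3% the GC box. A match is a description of the letters and no evidence of a bound factor.

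Other mucins were close to absent. Of the other secreted mucins, MUC2 and MUC6 were listed, and of the other membrane mucins, MUC4 with 10 counts in the PKP2 library and 5 in the vector library and MUC16 with 4 and 2. None reached 1 CPM. Of 20 further secreted proteins found in mucus, 9 were listed and only SLPI, an airway antiprotease, was expressed. SLPI was at 17.1 CPM in the PKP2 library and 17.5 CPM in the vector library, a ratio of 0.981 (0.831 to 1.16). Its log2(CPM + 1) difference was -0.03, or -0.27 after removal of the trend on length and GC.

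The factors known to act on mucin genes were mostly a little lower in the PKP2 library. Of 28 listed, 26 were expressed, 7 higher and 19 lower, and the ratio interval lay below 1 for 13 and above 1 for 0. Over all expressed genes 50.3% were lower, 19.8% had an interval below 1 and 16.3% one above 1. Intervals narrow as counts rise, and here and in the lists below these shares were not matched for counts. Their median log2(CPM + 1) difference was -0.12, against -0.0016 over all expressed genes, and 0 of them were at least 1.5-fold apart. The Notch receptors NOTCH3, at a ratio of 0.766 (0.660 to 0.889), and NOTCH2, with a fractional count, at 0.785 (0.736 to 0.837), stood lowest. EHF, an epithelial ETS factor, had a ratio of 0.804 (0.736 to 0.879) and SP3, a GC-box binding factor, one of 0.806 (0.747 to 0.868). SPDEF, the ETS factor that drives goblet cell differentiation, was picked after its value was seen. It had 11.9 CPM in the PKP2 library and 14.4 CPM in the vector library, a ratio of 0.825 (0.681 to 0.999). With the trend on length and GC removed, the log2(CPM + 1) difference was -0.31 for NOTCH3, -0.20 for NOTCH2, -0.29 for EHF and -0.16 for SP3. Before removal these values were -0.37, -0.35, -0.31 and -0.31. SPDEF went from -0.26 to -0.42.

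In the EGFR route the receptor differed most. EGFR was at 143.6 CPM in the PKP2 library and 258.5 CPM in the vector library, a ratio of 0.555 (0.528 to 0.584). Its log2(CPM + 1) difference was -0.84, or -0.70 after removal of the trend on length and GC. Any link between EGFR and the mucin genes was not tested. The ligand EREG had a ratio of 0.751 (0.719 to 0.785) and the ligand-shedding protease ADAM10 one of 0.792 (0.759 to 0.827), whereas the ligand HBEGF lay above 1 at 1.36 (1.04 to 1.79). With the same trend removed, the log2(CPM + 1) difference went from -0.41 to -0.30 for EREG and from -0.33 to -0.11 for ADAM10. For HBEGF it went from 0.39 to 0.32. Of 13 expressed genes 5 were higher and 8 lower, where 50.3% of all expressed genes were lower. Intervals lay above 1 for 2 (16.3% of all expressed genes) and below 1 for 7 (19.8% of them). The median was -0.20, or -0.07 after removal of the trend on length and GC.

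The IL-13 route had 5 expressed genes, 2 higher and 3 lower, with a median of -0.04. Intervals lay above 1 for 1 and below 1 for 2. Over all expressed genes 50.3% were lower, 19.8% had an interval below 1 and 16.3% one above 1. IL4R, the receptor subunit shared with IL-4, had a ratio of 1.16 (1.04 to 1.30) and its partner IL13RA1 one of 0.936 (0.888 to 0.987). The kinase JAK1 had 0.903 (0.867 to 0.941) and the kinase TYK2, with a fractional count, 1.04 (0.951 to 1.14).

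**Figure D4:**
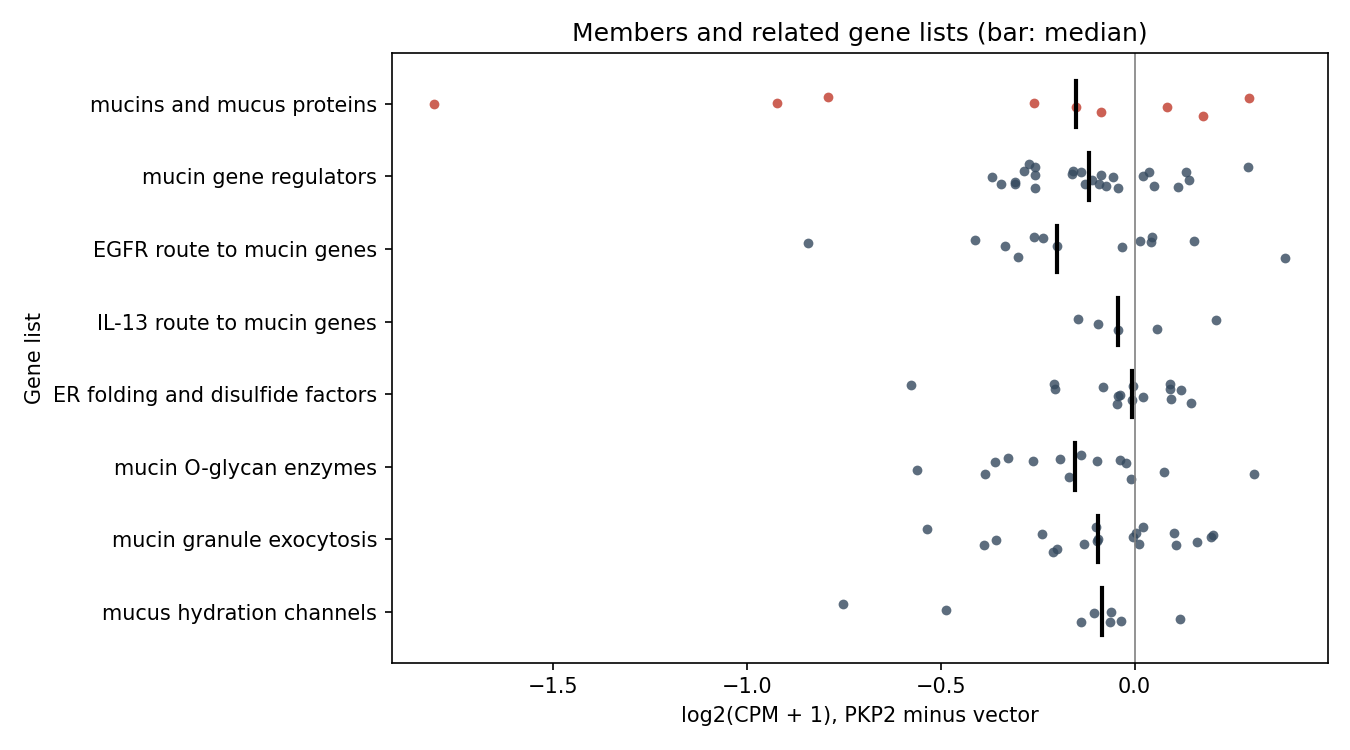
Difference in log2(CPM + 1), PKP2 minus vector, for the 9 mucin and mucus genes (red, top) and for the expressed genes of related lists (dark blue), 1 point per gene and a black bar at the median. MUC5AC at -1.81 lies apart from every other point, and the list medians run from -0.20 in the EGFR route to -0.01 among the folding factors.

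The list of folding and disulfide factors, mainly of the endoplasmic reticulum, which also holds the stress sensor ERN1, was centred on 0. Of 15 expressed, 6 were higher and 9 lower, with a median of -0.01. Intervals lay above 1 for 3 and below 1 for 5. Over all expressed genes 50.3% were lower, 19.8% had an interval below 1 and 16.3% one above 1. The oxidase ERO1B, with a fractional count, stood lowest at a ratio of 0.649 (0.533 to 0.791). The chaperone CANX had a ratio of 0.868 (0.849 to 0.887), the stress sensor ERN1 one of 0.860 (0.746 to 0.992) and the chaperone CALR one of 1.11 (1.08 to 1.13). With the trend on length and GC removed, the log2(CPM + 1) difference was -0.47 for ERO1B, -0.14 for CANX, -0.10 for ERN1 and 0.03 for CALR. Before removal these values were -0.58, -0.20, -0.21 and 0.15.

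Enzymes of mucin-type O-glycosylation were lower in 12 of 14 expressed cases and higher in 2, with intervals below 1 for 8 and above 1 for 1. Over all expressed genes 50.3% were lower, 19.8% had an interval below 1 and 16.3% one above 1. Their median was -0.15, or -0.10 after removal of the same trend. GALNT5, which starts O-glycans, had 14.0 CPM in the PKP2 library and 21.1 CPM in the vector library, a ratio of 0.662 (0.559 to 0.782), and GALNT7, which extends such glycosylation, one of 0.776 (0.713 to 0.845). B3GNT3, which elongates core glycans, had 0.756 (0.651 to 0.878), and the sialyltransferase ST3GAL1 had 0.794 (0.736 to 0.857).

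Genes of mucin granule release were mixed, with 8 higher and 11 lower of 19 expressed and a median of -0.10, or -0.03 after removal of that trend. Intervals lay above 1 for 1 and below 1 for 4. Over all expressed genes 50.3% were lower, 19.8% had an interval below 1 and 16.3% one above 1. By log2(CPM + 1) difference the small GTPase RAB27B stood lowest, at 68.0 CPM in the PKP2 library and 99.1 CPM in the vector library, a ratio of 0.686 (0.636 to 0.740). By ratio SYT7, a scarcer calcium sensor picked after its value was seen, was as low at 0.681 (0.424 to 1.08). The RAB27 effector SYTL4 had 0.760 (0.602 to 0.957), the priming factor UNC13B 0.862 (0.776 to 0.958) and the granule SNARE VAMP8 1.17 (0.898 to 1.54). With the trend on length and GC removed, the log2(CPM + 1) difference of UNC13B went from -0.21 to -0.01. That of VAMP8 went from 0.20 to -0.01, while RAB27B then lay at -0.35 and SYTL4 at -0.30.

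Among channels and transporters that set mucus hydration, 13 were listed and 8 expressed, of which 1 was higher and 7 lower. The ratio interval lay above 1 for 0 and below 1 for 3. Over all expressed genes 50.3% were lower, 19.8% had an interval below 1 and 16.3% one above 1. CFTR, SCNN1B and SCNN1G, picked after their values were seen, were under 1 CPM in both libraries. The median of the list was -0.08, or -0.14 after removal of the trend on length and GC. SLC12A2, the basolateral sodium-potassium-chloride cotransporter that feeds chloride secretion, had 89.1 CPM in the PKP2 library and 150.6 CPM in the vector library, a ratio of 0.591 (0.554 to 0.630). The water and glycerol channel AQP3 had 0.707 (0.628 to 0.795), the carbonic anhydrase CA12 0.930 (0.911 to 0.949) and the sodium channel subunit SCNN1A 1.10 (0.848 to 1.42). With that trend removed, the log2(CPM + 1) difference was -0.60 for SLC12A2, -0.57 for AQP3, -0.03 for CA12 and 0.05 for SCNN1A. Before removal these values were -0.75, -0.49, -0.11 and 0.12.

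Genes with the difference most like that of each secreted mucin were searched among the 10846 genes whose mean reached 5 CPM, a likeness that rests on 2 libraries and so on the size of 1 difference. No gene came near MUC5AC at -1.81. The nearest were the gene with Entrez ID 643314 at -1.16, LINC03105, with a fractional count, at -1.12, and the adhesion protein gene CEACAM6 at -1.06. For MUC5B at -0.92 they were the Wnt ligand gene WNT5A at -0.89, the sialidase gene NEU3 at -0.87 and the readthrough gene TVP23C-CDRT4, with a fractional count, at -0.85.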

How the data were processed

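Each deposited file lists an estimated count for every Entrez ID, headed as a count and not scaled to a common depth by the authors. The submitters' processing notes name RSEM 1.2.12, Bowtie2, HISAT2 2.0.4 and the build GRCh38.p12. Not given in the sources used here are the role of each tool, the annotation, the strandedness and whether reads were paired. The genes examined and the related lists were chosen with earlier results of these data known.

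Symbols came from a RefSeq table of GRCh38.p14, which matched 16183 of 16399 IDs. Coordinates, lengths and GC content came from GENCODE 29 on GRCh38, and 98.8% of expressed genes had a length. CPM was computed from the library total, and differences as log2(CPM + 1), PKP2 minus vector. Ratio intervals at 95% used counts rounded to whole numbers. With 1 library per group no p-value was computed. The lowess trend had a span of 0.3. Named genes were the 9 members, up to 4 genes per list, taken by absolute difference among those averaging at least 5 CPM (at least 1 CPM in lists with under 4 such genes), genes within 200 kb of MUC5AC or MUC5B, and the 3 genes nearest in difference to each of them. Cell type markers are named outside this rule, after their values were seen. The difference, interval and trend steps were tested on simulated data, with no scarce genes among those given a change. The other steps were not tested in this way. The software was Python 3.11.15, scipy 1.17.1 and statsmodels 0.14.6.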

Additional observations from a re-analysis of the deposited data

How the results depend on the processing

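No paired analysis was possible because each group held 1 library. For the same reason no library could be left out. The count of 3 genes at least 1.5-fold lower, and of 1 at least 2-fold lower, was the same under pseudocounts of 0.1 and 5, under scaling to the median or the trimmed mean of the log ratios, and after removal of the trend on length and GC. The median and trimmed mean scalings shifted the log2 CPM ratio by 0.0061 and 0.0060, and the log2(CPM + 1) difference by less in scarce genes. MUC5AC lay at -1.46 with a pseudocount of 5 and MUC5B at -0.82 with the trend removed, both outside their counting intervals, and the other differences of the 9 genes stayed within theirs. Removing the trend gave list medians of -0.0696 for the EGFR route, 0.0172 for the folding factors, -0.0971 for the O-glycan enzymes and -0.0286 for granule release, closer to 0 or past it, while those of the hydration channels, at -0.14, and the regulators, at -0.13, lay further from 0. With no filter on low values the medians were -0.0723 for the EGFR route, 0.0079 for the IL-13 route and -0.0504 for granule release, and over granule genes averaging at least 5 CPM the median was -0.0049. The medians of the folding factors and the IL-13 route thus changed sign. Per kilobase of coding sequence, an alternative chosen after seeing the data, AGR2 stood at 322.4 and 358.1 and MUC13 at 52.9 and 63.4 in the PKP2 and vector libraries, and MUC1 and MUC20 changed places in the vector library. The planned length from a table of proteins was not run. The cause of these shifts was not tested. Depth limits MUC1, MUC20, MUC3A and MUC12, which had between 21 and 107 counts.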

Other observations

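The genes within 200 kb of the other members, again between lowest coordinates, were picked for mention after their values were seen. Of 19 expressed neighbours of MUC1, with ratios of 0.727 to 1.61, the ephrin ligand gene EFNA1 stood highest, at 36.2 CPM in the PKP2 library and 22.5 CPM in the vector library, a ratio of 1.61 (1.42 to 1.84). Of 4 expressed neighbours of AGR2, the aryl hydrocarbon receptor gene AHR stood lowest, at 61.3 CPM in the PKP2 library and 85.0 CPM in the vector library, a ratio of 0.722 (0.666 to 0.783). The 3 expressed neighbours of MUC13 had ratios of 0.865 to 0.911.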
